A study of Rattus norvegicus with 16 samples.

Results

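The genes described here are 10 interferon-stimulated genes, Irf1, Irf7, Isg15, Usp18, Ifit2, Ifit3, Oas1a, Mx1, Mx2 and Gbp2, in the rat initial segment, the most proximal stretch of the epididymis. They were taken by symbol from the array's annotation, which gave 12 probe sets for them among the 31099 of the array. For every gene the probe set whose mean over the 16 arrays was highest leads, and the other probe sets of Ifit2 and Mx2 are given beside it. Of the 12 probe sets, 9 passed the minimum level set for testing, a log2 value of 5 or more on at least 4 of the 16 arrays, and these covered 8 of the 10 genes. Ifit3 and Oas1a did not pass.

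RNA came from the most proximal piece of the initial segment of adult male Sprague-Dawley rats, with surgery as the only treatment. The efferent ducts, which carry fluid and sperm out of the testis, were tied on 1 side of the animal, so that luminal testicular fluid no longer reached that epididymis. The opposite side received the sham operation. The groups were sham (labelled time 0), 6 h, 12 h and 18 h of efferent duct ligation, with 4 arrays each. The labels call the arrays biological replicates and do not tie an array to an animal, nor a sham side to the time at which it was taken, so p-values measure the spread between these arrays.

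Interferons bind receptors at the cell surface and, through the JAK kinases, activate STAT proteins. Type I interferons act mainly through the interferon-stimulated response element (ISRE) in DNA, whereas interferon gamma acts mainly through the gamma-activated site (GAS). The genes switched on include transcription factors of the IRF family, proteins that block viral RNA and protein synthesis, antiviral GTPases, and a ubiquitin-like modifier with its enzymes. Several of them, Irf1 above all, are also known to respond to other signals such as NF-kappaB.

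Array values were log2 levels made by the submitters with GCRMA and had a floor of 2.22. Correlations between arrays were 0.882 to 0.986. The arrays stood apart by replicate number: replicates 3 and 4 differed from replicates 1 and 2 at 4954 of the 13410 tested probe sets (36.9%), so values within replicates 1 and 2 and within replicates 3 and 4 are given beside the main results. What this division marks was not tested. A further set, replicates 3 and 4 of 12 h and 18 h, was used as a block in 1 alternative fit; within replicates 3 and 4, ligation for 12 h or 18 h and this set cannot be told apart. The labelled tissue was checked against 6 initial segment epithelial markers on the array, whose mean was 11.17 to 13.12 on the 16 arrays, with 0 of the 6 under 5 on all arrays. Against sham, their mean differed by -1.22 at 12 h and -0.21 at 18 h within replicates 1 and 2, and by -0.17 and -0.50 within replicates 3 and 4. Of the 6, 1 was lower at both times, Ggt1, an enzyme of glutathione breakdown, with differences of -0.60 at 12 h (adjusted p = 0.0434) and -0.76 at 18 h (adjusted p = 0.00941). Their part in the results was not tested. In tissue RNA, fewer cells of a type and less RNA per cell cannot be told apart. The tested sperm markers were lower after ligation, and 3 of 3 passed the test at 18 h (Prm1 -4.55, Odf1 -6.29 and Smcp -4.63 on the log2 scale).

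More of these genes were higher in ligated than in sham tissue at each later time. At 12 h, Irf1, Gbp2 and Isg15 were higher than in sham, and at 18 h these and Ifit2 and Mx2 were higher, with differences of 0.97 to 2.53 on the log2 scale. Irf7 and Mx1 had 18 h arrays that all lay above the sham arrays but did not pass the test in the fit on all arrays, and Usp18 showed the smallest 18 h difference, 0.35. A gene was called where limma, fitted on all 16 arrays, gave an adjusted p under 0.05 over the 13410 tested probe sets.

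At 6 h, 0 of 8 genes were called by limma, while 0.112% of all tested probe sets were called higher and 0.172% lower. At an unadjusted p under 0.05 was 1 of the 8, beside 764 of all 13410 tested probe sets. At 12 h, 3 of 8 were higher and 0 lower, beside 3.77% of all tested probe sets higher and 4.09% lower. At 18 h, 5 of 8 were higher and 0 lower, beside 5.2% higher and 4.96% lower. All 4 ligated arrays were above all 4 sham arrays for 1 gene at 6 h, 3 at 12 h and 7 at 18 h, beside 2.87%, 6.37% and 7.66% of all tested probe sets. The median difference of the 8 genes was 0.26 at 6 h, 0.79 at 12 h and 1.26 at 18 h, and over all tested probe sets 0.02, 0.02 and 0.01. With values under 5 set to 5, the medians of the 8 genes were 0.22, 0.43 and 0.92, and those of all tested probe sets 0.02, 0.02 and 0.01. The 3 comparisons share the sham arrays. Only genes that passed the minimum level enter these counts, and several passed it through the later arrays, so the counts describe the 8 genes and not all 10.

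**Figure D1:**
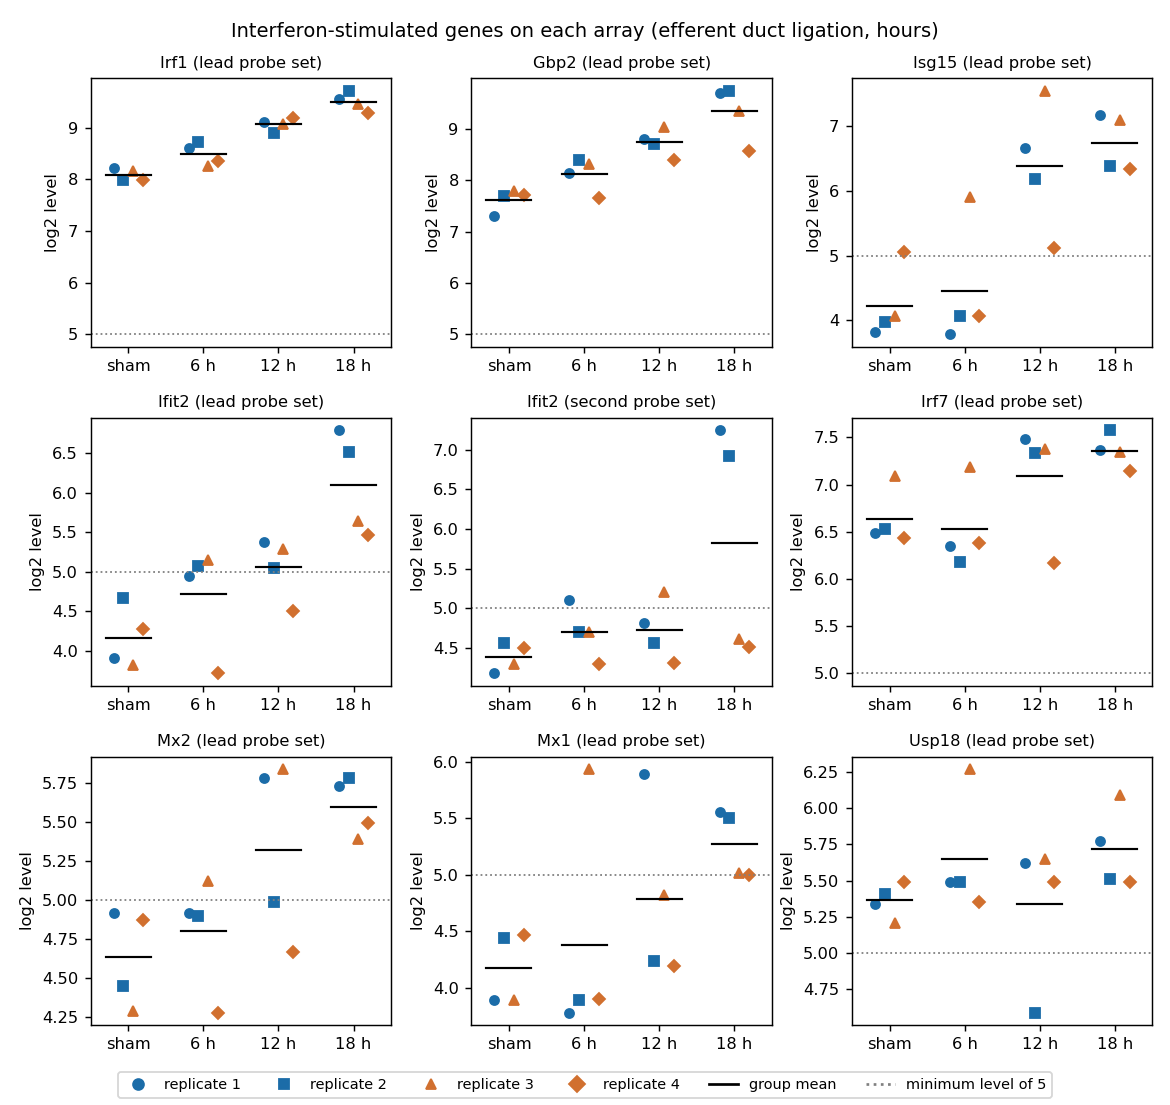
Log2 level of the 9 tested probe sets of interferon-stimulated genes (y axis) on each of the 16 arrays, by group (x axis, sham and hours of ligation). Marker shapes give the replicate number, black lines the group means, and the dotted line the minimum level of 5, and the y axes differ between panels. The group means of Irf1 and Gbp2 are higher at each later time, and all their values lie above the minimum level, whereas Isg15, Ifit2, Mx1 and Mx2 have sham means below it.

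Promoters of 6 of the 10 genes were found in the RefSeq table of the assembly GRCr8, which holds 250 bases before and 50 after each annotated start: Ifit3, Oas1a, Mx1, Gbp2, Irf1 and Irf7. Those of Isg15, Usp18, Ifit2 and Mx2 were not analysed here. The sequences were searched on both strands for an ISRE core (GAAA, any 2 bases, GAAA, or its complement TTTC, any 2 bases, TTTC) and for a GAS (TTC, any 3 bases, GAA, which reads the same on both strands). Below are the 250 bases before the start for Irf1 and Gbp2, whose calls at 12 h and 18 h held in every fit that left out 1 array, and the stretch around the ISRE core for Irf7, Ifit3 and Oas1a. They are written 5′ to 3′ on the gene's own strand, with the matched motif in capitals.
Irf1 (chr10:38417685-38417934, plus strand): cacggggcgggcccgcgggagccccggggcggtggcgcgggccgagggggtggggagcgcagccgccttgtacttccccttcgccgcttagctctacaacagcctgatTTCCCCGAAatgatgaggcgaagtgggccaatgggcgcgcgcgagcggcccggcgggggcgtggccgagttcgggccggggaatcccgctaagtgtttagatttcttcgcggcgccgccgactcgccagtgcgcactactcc
Gbp2 (chr2:234005477-234005726, plus strand): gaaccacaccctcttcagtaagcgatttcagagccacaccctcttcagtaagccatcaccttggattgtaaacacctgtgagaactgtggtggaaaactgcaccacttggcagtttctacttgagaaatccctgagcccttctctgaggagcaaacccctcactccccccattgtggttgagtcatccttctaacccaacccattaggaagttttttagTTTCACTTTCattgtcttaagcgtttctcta
Irf7 (chr1:205800058-205800117, minus strand): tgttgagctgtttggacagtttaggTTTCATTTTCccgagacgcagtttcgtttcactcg
Ifit3 (chr1:241527257-241527316, plus strand): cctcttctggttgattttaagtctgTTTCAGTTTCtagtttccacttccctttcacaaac
Oas1a (chr12:41330400-41330465, plus strand): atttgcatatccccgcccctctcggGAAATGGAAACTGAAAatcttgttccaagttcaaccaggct

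With bases before the start counted as negative numbers, the GAS of Irf1 lay at -142 to -134 and the ISRE core of Gbp2 at -31 to -22. The ISRE core of Irf7 lay at -69 to -60 and that of Ifit3 at -44 to -35. Oas1a held 2 overlapping ISRE cores, at -41 to -32 and -35 to -26, and a GAS at -199 to -191 outside the stretch shown. The Mx1 window (chr11:50294557-50294856, minus strand) held neither sequence of letters. An ISRE core was thus found in 4 of 6 promoters of these genes (66.7%) and a GAS in 2 of 6 (33.3%). Over all 33469 promoters of the table the shares were 3.92% and 8.87%, and over the 7030 promoters of genes with a tested probe set 2.96% and 6.59%. Ifit3 and Oas1a, which hold an ISRE core, were below the minimum level on all 16 arrays. A match is a run of letters and was not tested for binding.

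Irf1 encodes a transcription factor that binds ISRE-like sites and drives antigen presentation genes. Its log2 level was 8.23, 7.98, 8.17 and 7.98 in sham, 8.61, 8.73, 8.27 and 8.36 at 6 h, 9.12, 8.9, 9.07 and 9.19 at 12 h, and 9.56, 9.72, 9.46 and 9.29 at 18 h (replicates 1 to 4 in each group). The 4 groups did not overlap with each other at any step. The difference from sham was 0.40 ± 0.12 at 6 h (SE; adjusted p = 0.427, unadjusted p = 0.0057), 0.98 ± 0.12 at 12 h (adjusted p = 0.000228) and 1.42 ± 0.12 at 18 h (adjusted p = 7.4e-06, 95% interval 1.15 to 1.69), a fold of 2.67 at 18 h. All adjusted p-values here are limma's after Benjamini-Hochberg adjustment across the 13410 tested probe sets. At 12 h the difference was 0.90 within replicates 1 and 2 and 1.05 within replicates 3 and 4, and at 18 h it was 1.53 and 1.30. The calls at 12 h and 18 h held without any 1 array of either group. The change in replicates 3 and 4 minus that in replicates 1 and 2 was -0.23 ± 0.19 at 18 h (adjusted p = 0.71).

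Irf7 encodes the transcription factor that amplifies the production of type I interferon. Its log2 levels were 6.49, 6.53, 7.09 and 6.43 in sham, 6.35, 6.18, 7.19 and 6.38 at 6 h, 7.48, 7.33, 7.38 and 6.17 at 12 h, and 7.37, 7.58, 7.34 and 7.14 at 18 h. The 18 h arrays all lay above the sham arrays, though the lowest of them, at 7.14, was close to sham replicate 3, at 7.09. The difference from sham was -0.11 ± 0.28 at 6 h (adjusted p = 1), 0.46 ± 0.28 at 12 h (adjusted p = 0.428) and 0.72 ± 0.28 at 18 h (adjusted p = 0.131). At 12 h it was 0.90 within replicates 1 and 2 and 0.02 within replicates 3 and 4, where replicate 4 was the lowest of all 16 arrays. The 18 h difference passed the test in 4 other fits, which share arrays. Adjusted p was 0.0493 with the replicate number as a block and 0.0345 with the 3 sets of arrays as a block. It was 0.0471 with only the 2 groups compared. Within replicates 1 and 2 the difference was 0.97 (adjusted p = 0.014). Within replicates 3 and 4 it was 0.48 and did not pass (adjusted p = 0.578). Nor did it pass in any of the 8 fits that left out 1 array of either group.

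Isg15 encodes the ubiquitin-like protein that is attached to other proteins during an interferon response. Its log2 level was 3.82, 3.97, 4.06 and 5.05 in sham, 3.78, 4.06, 5.9 and 4.06 at 6 h, 6.67, 6.18, 7.55 and 5.12 at 12 h, and 7.17, 6.38, 7.1 and 6.34 at 18 h. All arrays at 12 h and 18 h lay above all sham arrays, although the lowest 12 h array and the highest sham array were 5.12 and 5.05. The difference from sham was 0.22 ± 0.52 at 6 h (adjusted p = 1), 2.16 ± 0.52 at 12 h (adjusted p = 0.0193) and 2.53 ± 0.52 at 18 h (adjusted p = 0.00589), the largest of the 8 genes at 18 h. Of the 4 sham arrays, 3 were below the minimum level, and with values under 5 set to 5 the differences were 1.37 at 12 h and 1.74 at 18 h. Within replicates 1 and 2 the 18 h difference was 2.88, and within replicates 3 and 4 it was 2.17. The 12 h call did not hold without sham replicate 2 (adjusted p = 0.0538), sham replicate 3 (0.052) or 12 h replicate 1 (0.0574), with no minimum level (0.0707), or with only the 2 groups compared (0.063). The 18 h call held in all 8 fits that left out 1 array of either group, with an adjusted p of at most 0.0218.

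Usp18 encodes the protease that removes ISG15 from proteins and also damps signalling from the type I interferon receptor. Its log2 level was 5.34, 5.41, 5.21 and 5.49 in sham, 5.49, 5.49, 6.27 and 5.35 at 6 h, 5.62, 4.59, 5.65 and 5.49 at 12 h, and 5.77, 5.51, 6.09 and 5.49 at 18 h. The groups overlapped at each time. Differences from sham were 0.29 ± 0.24, -0.03 ± 0.24 and 0.35 ± 0.24 at 6, 12 and 18 h (adjusted p = 1, 0.976 and 0.449), and the 95% interval at 18 h ran from -0.17 to 0.87, which takes in changes of either sign.

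Ifit2 and Ifit3 encode proteins that bind RNA and hinder its translation in virus-infected cells. The lead Ifit2 probe set read 3.9, 4.67, 3.82 and 4.27 in sham, 4.95, 5.07, 5.15 and 3.71 at 6 h, 5.38, 5.05, 5.29 and 4.5 at 12 h, and 6.8, 6.52, 5.64 and 5.46 at 18 h on the log2 scale. The 18 h arrays stood above all 12 other arrays, and replicates 1 and 2 were the highest of them. Against sham, the difference was 0.56 ± 0.36 at 6 h (adjusted p = 1), 0.89 ± 0.36 at 12 h (adjusted p = 0.174) and 1.94 ± 0.36 at 18 h (adjusted p = 0.00296), or 1.11 at 18 h with values under 5 set to 5. Leaving out any array of either group kept the 18 h call, with an adjusted p of at most 0.0129.

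The other Ifit2 probe set gave a split picture at 18 h. Its log2 levels there were 7.25 and 6.92 in replicates 1 and 2, and 4.61 and 4.51 in replicates 3 and 4, against 4.18, 4.56, 4.3 and 4.5 in sham. The 18 h difference was 1.43 ± 0.51 over all arrays (adjusted p = 0.0956), with 2.71 within replicates 1 and 2 and 0.16 within replicates 3 and 4. A fit that let the change differ between these pairs of replicates gave a difference of -2.55 ± 0.40 (adjusted p = 0.034). Both Ifit2 probe sets were therefore highest in 18 h replicates 1 and 2 and disagreed about replicates 3 and 4. Ifit3 stood at the floor of 2.22 on all sham and 6 h arrays, and its highest value was 3.46, at 12 h, so no change in it could be measured.

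Oas1a encodes an oligoadenylate synthetase, which makes the messenger that activates the RNA-cutting enzyme RNase L. On 15 of the 16 arrays its log2 level was 3.06 to 3.48, and 12 h replicate 2 read 4.9. All 16 values were under the minimum level, so the gene was not tested.

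Mx1 and Mx2 encode dynamin-like GTPases that block the entry or copying of viral genomes. Mx1 read 3.89, 4.44, 3.89 and 4.47 in sham, 3.78, 3.89, 5.94 and 3.9 at 6 h, 5.89, 4.24, 4.82 and 4.19 at 12 h, and 5.56, 5.5, 5.02 and 5.0 at 18 h on the log2 scale. The 18 h arrays lay above all sham arrays, but 6 h replicate 3 and 12 h replicate 1 were higher than any of them. The difference from sham was 0.21 ± 0.45 at 6 h (adjusted p = 1), 0.62 ± 0.45 at 12 h (adjusted p = 0.535) and 1.10 ± 0.45 at 18 h (adjusted p = 0.159), the last of these 0.27 with values under 5 set to 5. With only the 2 groups compared, the 18 h difference passed the test (adjusted p = 0.0198).

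Mx2 stood at 4.92, 4.45, 4.29 and 4.87 in sham, 4.92, 4.9, 5.12 and 4.28 at 6 h, 5.78, 4.99, 5.84 and 4.67 at 12 h, and 5.73, 5.78, 5.39 and 5.49 at 18 h. Again all 18 h arrays were above all sham arrays, here by a narrow margin. Against sham the difference was 0.17 ± 0.26 at 6 h (adjusted p = 1), 0.69 ± 0.26 at 12 h (adjusted p = 0.137) and 0.97 ± 0.26 at 18 h (adjusted p = 0.029), the last 0.60 with values under 5 set to 5. That call did not hold without sham replicate 2 (adjusted p = 0.0753), sham replicate 3 (0.0874), 18 h replicate 1 (0.073) or 18 h replicate 2 (0.0735), with no minimum level (0.0868), with the 3 sets of arrays as a block (0.0699), within replicates 1 and 2 (0.0855), or within replicates 3 and 4 (0.301). The other Mx2 probe set stayed between 2.22 and 2.68 and was not tested. Mx1 and Mx2 are close relatives, and whether their probes read each other's transcripts was not tested.

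Gbp2 encodes a guanylate-binding protein that acts against pathogens inside cells and is a classical target of interferon gamma. Its log2 level was 7.3, 7.69, 7.79 and 7.71 in sham, 8.13, 8.4, 8.31 and 7.66 at 6 h, 8.8, 8.71, 9.04 and 8.4 at 12 h, and 9.7, 9.74, 9.34 and 8.57 at 18 h. Sham and 6 h overlapped through replicate 4, and from 12 h on all ligated arrays were above all sham arrays. The difference from sham was 0.51 ± 0.24 at 6 h (adjusted p = 0.915), 1.12 ± 0.24 at 12 h (adjusted p = 0.0111) and 1.72 ± 0.24 at 18 h (adjusted p = 0.000387), a fold of 3.29 at 18 h with a 95% interval of 1.2 to 2.24 on the log2 scale. At 18 h it was 2.23 within replicates 1 and 2 and 1.21 within replicates 3 and 4, a difference of -1.02 ± 0.41 that did not pass the test (adjusted p = 0.39).

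**Figure D2:**
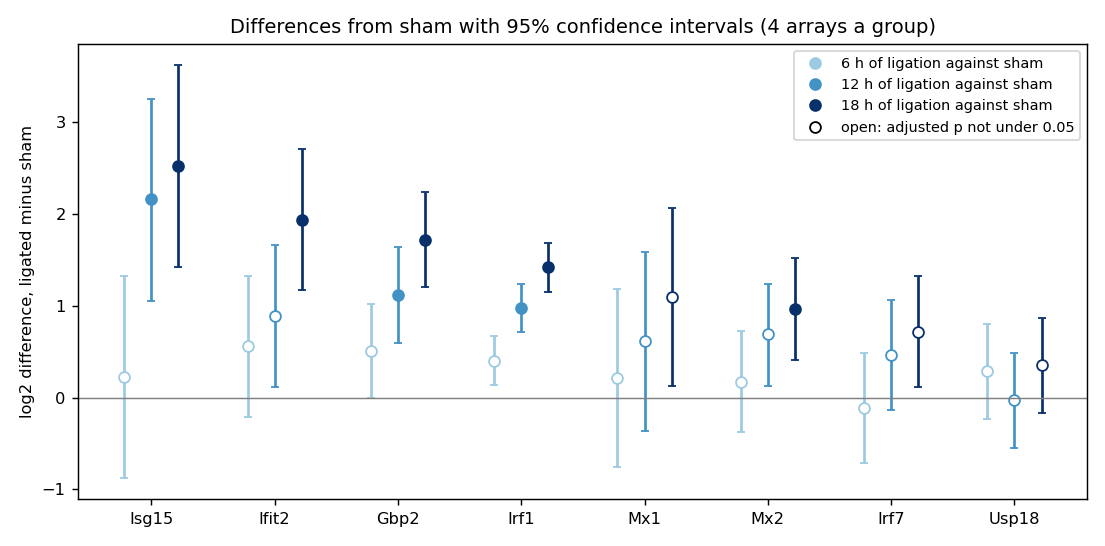
Log2 difference from sham (y axis) of the 8 tested interferon-stimulated genes (x axis, lead probe sets) at 6, 12 and 18 h of ligation, with 95% confidence intervals from limma and 4 arrays a group. Filled points had an adjusted p under 0.05; the 8 filled points are Isg15, Gbp2 and Irf1 at 12 h and Isg15, Ifit2, Gbp2, Irf1 and Mx2 at 18 h.

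Between successive times, Isg15 and Irf1 were higher at 12 h than at 6 h. Isg15 differed by 1.93 ± 0.52 (adjusted p = 0.0492) and Irf1 by 0.57 ± 0.12 (adjusted p = 0.0196). These were 2 of 8 genes higher and 0 lower, beside 1.82% of all tested probe sets higher and 2.46% lower. Isg15 lost this call in 6 of the 8 fits that left out 1 array and Irf1 in 3 of 8, and Isg15 differed by 1.16 with values under 5 set to 5. Between 18 h and 12 h, 0 of 8 genes were called by limma, beside 0% of all tested probe sets higher and 0% lower. At an unadjusted p under 0.05 were 3 of the 8, beside 877 of all 13410 tested probe sets. The largest difference there was that of Ifit2, 1.05 ± 0.36 (adjusted p = 0.566), although its 18 h and 12 h arrays did not overlap.

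The calls differed between the pairs of replicates. Fitted on replicates 1 and 2 alone, 4 of 8 genes were higher at 12 h (Irf1, Irf7, Isg15 and Gbp2), beside 2.46% of all tested probe sets. At 18 h in this fit 5 of 8 were higher, beside 3.6%, with Irf7 among them (adjusted p = 0.014) and Mx2 not (0.0855). On replicates 3 and 4 alone 1 of 8 was higher at each time, Irf1, beside 1.49% at 12 h and 2.48% at 18 h. Within replicates 3 and 4 the 18 h differences of the other genes called on all arrays were positive: 2.17 for Isg15 (adjusted p = 0.222), 1.51 for Ifit2 (0.128), 1.21 for Gbp2 (0.0985) and 0.86 for Mx2 (0.301). Whether the change itself differed between the pairs of replicates was tested in a limma fit over all 16 arrays. At 18 h this difference passed for 0 of the 8 lead probe sets, beside 55 of all 13410 tested probe sets. That of Gbp2 alone among the 8 had an unadjusted p under 0.05, beside 1473 of all tested probe sets. With so few passing among all probe sets, 0 of 8 does not show that the change was alike in both pairs.

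The wider pathway was read from lists of 143 other genes, of which 97 were on the array and 68 were tested. Only genes that passed the minimum level enter the counts below. Among those that did not, Ifit1, Oasl, Cmpk2, Ido1 and Socs1 had group means of 2.22 to 2.47. Rsad2 and Cxcl10, also not tested, had means of 3.6 and 3.61 at 18 h, against 2.39 and 2.36 in sham. Their differences were 1.74 and 2.04 within replicates 1 and 2, and 0.67 and 0.45 within replicates 3 and 4. At 6 h, 0 of 68 passed the test, with 6 at an unadjusted p under 0.05, beside 764 of all 13410 tested probe sets. At 12 h, 15 were higher and 0 lower, and at 18 h, 22 were higher and 0 lower, beside 3.77% and 5.2% of all tested probe sets higher, with median differences of 0.44 and 0.59. The interferon genes on the array, Ifnb1, Ifng and Ifnk, were at 2.22 to 2.25 on all 16 arrays and were not tested.

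Of the 9 receptor chains and kinases, 1 was called, the type I receptor chain Ifnar2. Its log2 level was 5.54, 5.49, 5.79 and 6.13 at 18 h, against 4.82, 4.25, 4.84 and 4.88 in sham, without overlap, a difference of 1.04 ± 0.24 (adjusted p = 0.0118). The difference at 12 h was 1.19 (adjusted p = 0.00671). Among the 5 tested transcription factors, 1 was called, Stat2, which acts in the type I interferon response. It read 8.37, 8.4, 8.28 and 8.04 at 18 h, against 7.22, 6.91, 7.07 and 7.59 in sham, a difference of 1.07 ± 0.18 (adjusted p = 0.00146). Its 12 h difference was 0.98 (adjusted p = 0.00364). Of the 4 tested RNA and DNA sensors and the 2 tested enzymes of ISG15 conjugation, 0 were called by limma at either time. At an unadjusted p under 0.05 were 1 and 2 of them at 18 h, and 1 and 0 at 12 h. Over all 13410 tested probe sets 2972 were so at 18 h and 2618 at 12 h. The sensor at 12 h was Sting1, with a difference of -1.52 ± 0.58 (adjusted p = 0.139). It was -1.63 within replicates 1 and 2 and -1.42 within replicates 3 and 4. At 18 h Sting1 differed by -0.45 (adjusted p = 0.731).

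Gbp2 was accompanied by the other tested interferon-inducible GTPases, of which 2 of 4 were higher at 12 h and 4 of 4 at 18 h. The family guards vacuoles that hold bacteria or parasites in mouse cells. Igtp, which had the largest 18 h difference among them, read 8.22, 8.37, 7.95 and 6.95 at 18 h, against 6.23, 5.32, 5.13 and 5.46 in sham. The groups did not overlap, and the difference was 2.34 ± 0.29 (adjusted p = 0.000123). Gbp7 was higher by 1.78, Irgm2 by 1.68 and Irgm by 1.43 (adjusted p = 0.000969, 0.00073 and 0.0101). Members of these families resemble each other, and cross-reading by the probes was not tested.

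Of the 11 tested antigen presentation genes, 5 were higher at 12 h and 5 at 18 h, namely the immunoproteasome subunits Psmb8, Psmb9 and Psmb10, the proteasome activator Psme2 and the peptide transporter Tap1. Tap1 read 7.54, 7.28, 7.22 and 7.3 at 18 h, against 4.91, 4.89, 5.85 and 5.99 in sham, a difference of 1.92 ± 0.23 (adjusted p = 7.97e-05). Psmb8 was higher at 18 h by 1.08, Psmb10 by 0.95 and Psme2 by 0.67 (adjusted p = 0.00601, 0.000143 and 0.0144). Psmb9 differed by 1.19 ± 0.12 at 18 h (adjusted p = 3.29e-05), with 1.14 within replicates 1 and 2 and 1.24 within replicates 3 and 4. The 3 immunoproteasome subunits and Psme2 were also higher at 12 h than at 6 h, by 0.67 to 1.38 (adjusted p of at most 0.0289). So were Ifnar2, Ifitm1 and Ifitm3, by 1.10, 0.63 and 0.72 (limma, adjusted p = 0.0199, 0.047 and 0.0441). These were 7 of the 68 other pathway genes, with 0 lower, beside 1.82% of all tested probe sets higher and 2.46% lower.

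Among 31 tested antiviral effectors outside the 10 genes, 6 were higher at 12 h and 10 at 18 h. The ubiquitin ligase Dtx3l and its partner Parp9 were among the genes higher at 18 h. Dtx3l read 8.97, 8.72, 8.67 and 8.25 at 18 h, against 7.32, 6.9, 6.97 and 6.74 in sham, without overlap, a difference of 1.67 ± 0.16 (adjusted p = 1.88e-05). Parp9 was higher by 1.60 ± 0.27 (adjusted p = 0.00144) and Parp14, of the same enzyme family, by 1.48 ± 0.17 (adjusted p = 7.72e-05). The membrane proteins Ifitm1 and Ifitm3, which hinder viral entry, were higher by 0.96 and 0.81 (adjusted p = 0.00177 and 0.0126). The others of the 10 were Rtp4, Ifi44l, Trex1, Parp12 and Sp110, with differences of 0.56 to 1.5. Ifi35 was called at 12 h (0.91, adjusted p = 0.0412) and differed by 0.74 at 18 h (adjusted p = 0.0866). Of 2 tested chemokines and other inducible ligands, Tnfsf10, which encodes the death ligand TRAIL, was higher at 18 h by 1.25 ± 0.20 (adjusted p = 0.000966).

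**Figure D3:**
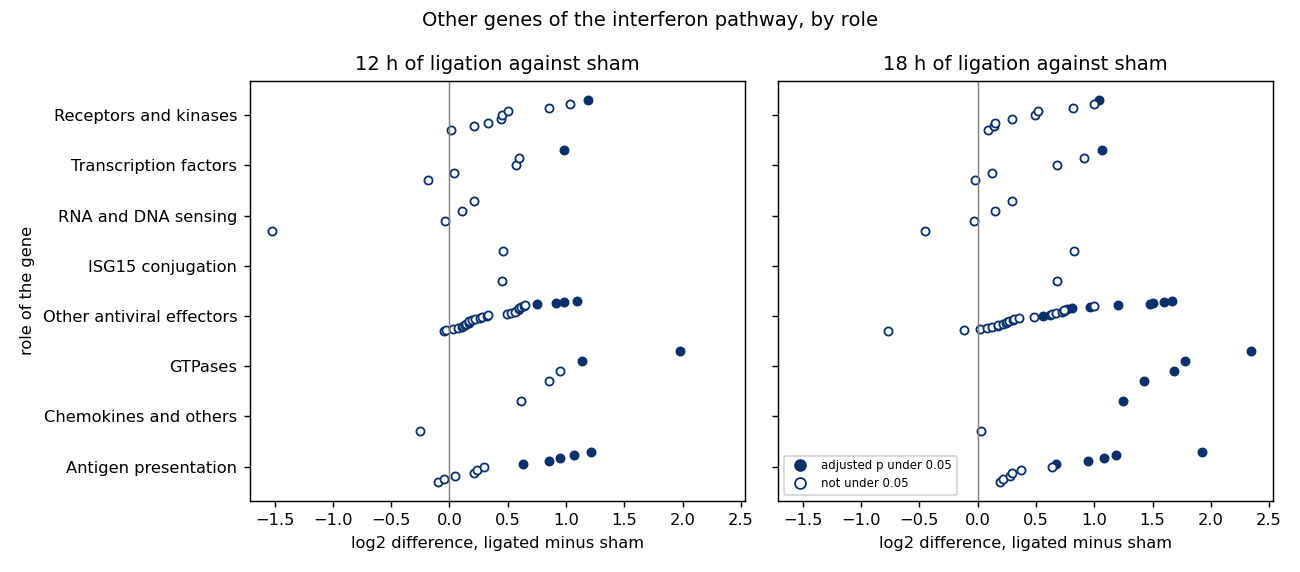
Log2 difference from sham (x axis) of the 68 other tested pathway genes, in rows by role (y axis), at 12 h (left) and 18 h of ligation (right). Each point is 1 gene and filled points had an adjusted p under 0.05; the filled points, 15 at 12 h and 22 at 18 h, all lie to the right of 0, and the 4 GTPases are all filled at 18 h.

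The promoter search was repeated on the pathway lists. Of the 58 tested pathway genes with a promoter in the table, 27 held an ISRE core (46.6%) and 13 a GAS (22.4%). Among the 20 of these that were higher at 18 h, 14 held an ISRE core (70%) and 9 a GAS (45%). The lists were made of genes known to respond to interferon, and nothing was tested on these shares.

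Across the 16 arrays, with the mean of each pair of replicates subtracted, the 8 tested genes ran together to differing degrees. Over the 28 pairs of genes Pearson's r was 0.2 to 0.94 with a median of 0.75, and the highest was that of Ifit2 with Gbp2. Irf1 with Gbp2 and Isg15 with Mx2 each reached 0.91, and the lowest was that of Usp18 with Irf7. The arrays share the 4 groups, so these values describe the time course as much as the arrays. Among 8301 other genes, those whose levels ran closest to the mean of the 8 standardised genes were Dnajb2 (r = 0.932), Dusp1 (0.893), Gbp7 (0.89), Mcl1 (0.889), Rhob (0.886), Crem (0.885), Shmt2 (0.884), Zfp36 (0.883), Egr1 (0.882) and Rtp4 (0.881). The list thus held 2 genes of the interferon lists, Gbp7 and Rtp4, beside immediate early genes such as Egr1, Dusp1 and Zfp36. Egr1 was higher at 18 h by 2.21 (adjusted p = 0.000449) and Dusp1 by 1.94 (adjusted p = 0.0157). The most opposed were Srrm1 (r = -0.934), Chst10 (-0.929) and Ptpn5 (-0.929).

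Mean levels of macrophage, pan-leukocyte, NK cell and neutrophil markers were above sham in replicates 1 and 2 at 12 h and 18 h. Those of macrophage and NK cell markers were so also in replicates 3 and 4 at 18 h. Within replicates 1 and 2, fibroblast, smooth muscle and endothelial means were also above sham, by 0.57, 0.43 and 0.20 at 12 h. At 18 h these differed by 0.41, 0.20 and 0.25, and epithelial markers by 0.29. In replicates 3 and 4 at 18 h, epithelial markers differed by 0.37 and endothelial markers by 0.27. Initial segment and sperm means were below sham in both pairs of replicates at both times, and T cell means differed by -0.04 to 0.01. The mean log2 level of the 12 macrophage markers was 5.44 to 6.01 in sham, 4.66 to 6.89 at 12 h and 5.63 to 6.72 at 18 h, and 3 of the 12 were under 5 on all arrays. Within replicates 1 and 2 it differed from sham by 0.78 at 12 h and 0.68 at 18 h. Within replicates 3 and 4 it differed by -0.27 and 0.34. There, at 18 h, Cd68 differed by 1.42 and Cd14 by 1.3, and the other macrophage markers by 0 to 0.25. Of the 9 tested macrophage markers, 1 was called at 18 h, Cd14, a receptor for bacterial lipid, higher by 1.92 ± 0.46 (adjusted p = 0.0158). The mean of the 3 pan-leukocyte markers differed by 0.79 and 0.43 within replicates 1 and 2, and by -0.23 and -0.01 within replicates 3 and 4. Of these 3, 0 were called at 18 h by limma, with 0 at an unadjusted p under 0.05.

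The mean of the 5 NK cell markers was 4.29 to 4.80 in sham, 4.30 to 5.19 at 12 h and 4.85 to 5.27 at 18 h, and 1 of them, Ncr1, reached at most 2.27. It differed from sham by 0.52 at 12 h and 0.54 at 18 h within replicates 1 and 2. Within replicates 3 and 4 it differed by 0.10 and 0.25. There, at 18 h, Gzmb differed by 1 and Prf1 by 0.61, but Nkg7 by -0.21 and Klrd1 by -0.15. Of the 3 tested, 0 were called by limma at either time, with 1 at an unadjusted p under 0.05. Over all 13410 tested probe sets 2618 were so at 12 h and 2972 at 18 h. The 1 NK cell marker was Gzmb, the granzyme of cytotoxic cells, which differed by 1.40 at 12 h and 1.26 at 18 h (adjusted p = 0.134 and 0.16). The mean of the 5 neutrophil markers on the array was 4.19 and 5.57 in 12 h replicates 1 and 2. In 18 h replicates 1 and 2 it was 3.45 and 3.29. Replicates 3 and 4 of both times and all sham arrays had means of 2.39 to 2.45. Of these 5 markers, 0 passed the minimum level for testing, and 2 were under 5 on all arrays. Within replicates 1 and 2 at 18 h, Fcnb differed from sham by 3.52, S100a9 by 1.02 and the others by 0 to 0.09. Of 8 T cell markers, 6 were under 5 on all arrays and 0 of the 2 tested were called at 18 h by limma, with 0 at an unadjusted p under 0.05, and both B cell markers on the array stood at 2.22. Among markers of other cells, the epithelial Cldn3 was higher by 0.76 at 12 h and 0.52 at 18 h (adjusted p = 0.00732 and 0.0463) and the endothelial Kdr by 0.95 at 18 h (adjusted p = 0.00876), 1 of 8 and 1 of 2 tested markers. The part of leukocyte or other cell RNA in the differences of the interferon-stimulated genes was not tested.

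**Figure D4:**
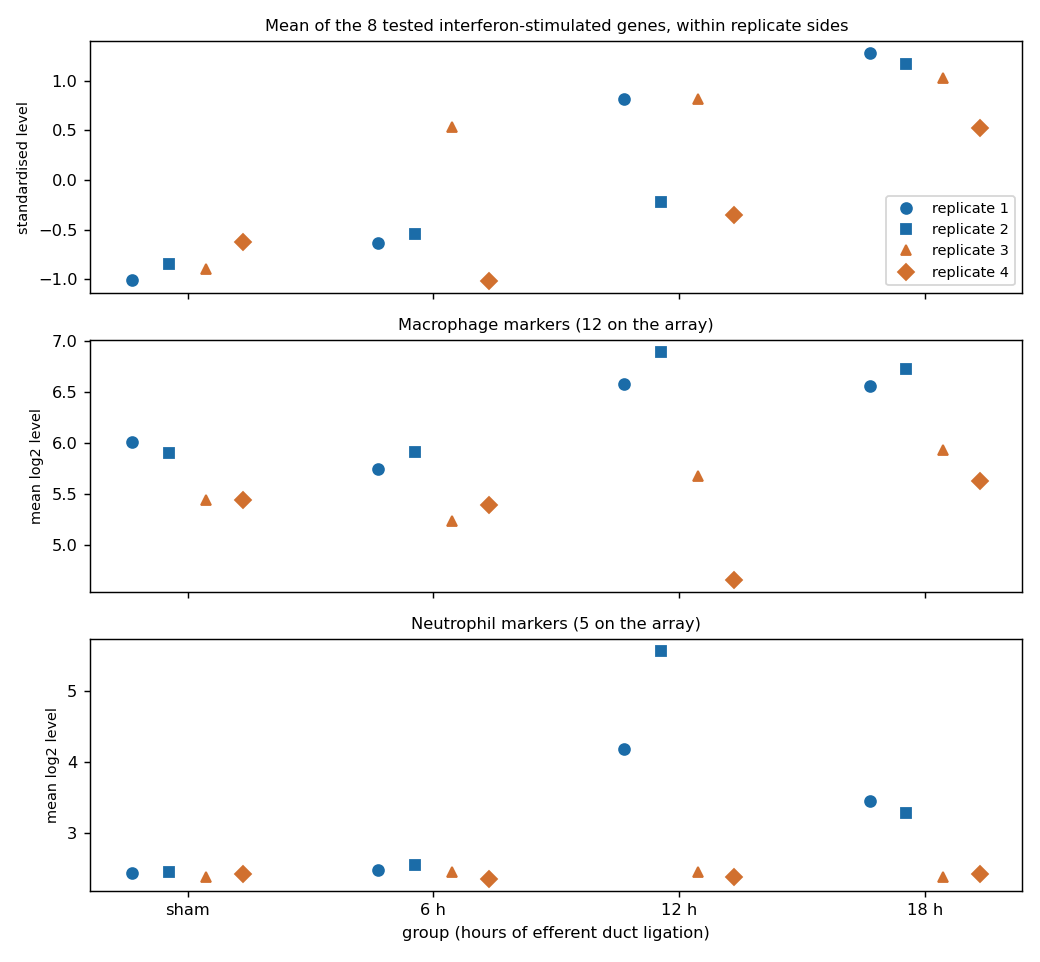
Mean of the 8 standardised interferon-stimulated genes with the mean of each pair of replicates subtracted (top), mean log2 level of 12 macrophage markers (middle) and of 5 neutrophil markers (bottom) on each of the 16 arrays (x axis, sham and hours of ligation). In the top panel all 4 of the 18 h arrays lie between 0.52 and 1.28 and all sham arrays between -1.01 and -0.62, and in the bottom panel neutrophil markers lie at 3.29 to 5.57 in replicates 1 and 2 of 12 h and 18 h and at 2.35 to 2.55 on the other 12 arrays.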

How the data were processed

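The deposited value table was used, with 1 log2 level per probe set and array for 16 arrays of 4 groups. These log2 values were made by the authors with GCRMA, per the submitters' processing notes, in a version not given in the sources used here. GCRMA corrects background by probe sequence and brings the arrays to 1 distribution, so shifts shared by all genes are removed and low values gather at a floor. Scanner files were not analysed here, and the number of arrays limits the precision.

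Of 31099 probe sets, 57 controls were left out. The platform annotation of 2016 gave 20826 probe sets 1 symbol, 436 several and 9780 none, and 20758 of the first were found by Entrez ID in RefSeq's gene table of GRCr8, where 0 symbols changed. A level of at least 5 on at least 4 arrays was required for testing, which left 13410. Group means were fitted on all 16 arrays with limma 3.58.1 in R 4.3.3 (lmFit, eBayes), and an adjusted p under 0.05 was a call. The procedure was tested on simulated data with independent noise on each array, which held no division by replicate number.

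The genes, the lists of 143 pathway genes and of cell type markers, and the tests were chosen with earlier results of these data known. Genes of the pathway lists are named with a value or range if called, as are Sting1 and some genes below the minimum level. The 10 nearest and 3 most opposed genes by correlation are also named. Alternatives were other priors, filters, normalizations, blocks, sets of arrays, an average by symbol, and each array left out. The fit that lets the change differ between pairs of replicates, and the ranks of arrays within a group, were added after seeing the data.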

Additional observations from a re-analysis of the deposited data

Results flagged for a closer look

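Within groups of 4 arrays, 7 of the 36 groups checked (9 tested probe sets in 4 groups) held an array far from the other 3. Chance flags about 1 in 20 where groups are independent. The 9 probe sets were read on the same arrays, so no excess over chance can be read from this count. On 6 h replicate 3, Isg15 read 5.9 (next highest 4.06), Usp18 6.27 (next 5.49) and Mx1 5.94 (next 3.9). Usp18 read 4.59 on 12 h replicate 2, and the lead Ifit2 probe set 3.71 on 6 h replicate 4. Irf7 read 7.09 on sham replicate 3 and 6.17 on 12 h replicate 4.

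The array of 6 h replicate 3 was the highest of its group for 6 of the 8 genes (75%), for 18 of the 68 other pathway genes (26.5%) and for 27.1% of all tested probe sets. Chosen after their values were seen, the pathway genes that stood out most on it were Bst2, an antiviral membrane tether, at 7.52 against a mean of 6.27 on the other 6 h arrays, Tapbp (7.93 against 6.94) and Lgals3bp (8.24 against 7.3). Macrophage markers had a mean of 5.24 on that array, the lowest of the 6 h arrays. The array of 12 h replicate 4 was the lowest of its group for 6 of the 8 genes (75%), for 23 of 68 pathway genes (33.8%) and for 26.3% of all tested probe sets. Its macrophage mean of 4.66 was the lowest of all 16 arrays. The array of 18 h replicate 4 was the lowest of its group for 7 of the 8 genes (87.5%). It was so for 35 of 68 pathway genes (51.5%) and for 28.3% of all tested probe sets. Its macrophage mean of 5.63 was the lowest of the 18 h arrays. Whether macrophage RNA or array quality has a part in these patterns was not tested.

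Between times, Isg15 was higher at 12 h than at 6 h by 1.93 and Irf1 by 0.57, each past the test. Between the pairs of replicates, the change of the other Ifit2 probe set at 18 h differed by -2.55, with 2.71 within replicates 1 and 2 and 0.16 within replicates 3 and 4. At 18 h such a difference passed the test for 55 of all tested probe sets.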

How the results depend on the processing

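Rescaling by a new quantile normalization, centring each array on its median, or a trended robust prior changed no call of the 8 genes, and the median of all tested probe sets stayed within -0.0154 to 0.0236. With no minimum level, 7, 653 and 277 probe sets were called at 6 h and 12 h against sham and at 12 h against 6 h, and 1 of the 8 genes at 12 h against 6 h, with more probe sets entering the adjustment. With a minimum of 7, which removes most of the genes from the test, 2 were called at 18 h and 1 at 12 h against 6 h. With values under 5 set to 5, 1 was called at 12 h against 6 h, and the differences of Usp18 at 12 h (0.08) and of Mx1 at 12 h against 6 h (-0.01) changed sign. Averaging probe sets by symbol gave 23 called at 6 h and 693 at 12 h against sham, over fewer features. Fits on only the 2 groups compared called 15, 477 and 827 probe sets at 6, 12 and 18 h against sham and 323 at 12 h against 6 h, with 0 of the 8 genes in the last; the cause was not tested.

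Replicates 1 and 2 alone gave 4, 617 and 828 probe sets at 6, 12 and 18 h against sham and 110 at 18 h against 12 h, and Mx1 at 6 h became -0.33. Replicates 3 and 4 alone gave 3 and 572 at 6 h and 12 h against sham, 115 at 12 h against 6 h and 1 at 18 h against 12 h. They gave 1 of the 8 genes at 12 h, 1 at 18 h and 0 at 12 h against 6 h. There the differences of Irf7 at 6 h (0.03), Usp18 at 12 h (0.22), and Mx1 and Irf7 at 12 h against 6 h (-0.42 and -0.01) changed sign. These fits hold fewer samples.

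With the replicate number as a block, 1709, 2165, 1166 and 2 probe sets were called at 12 h and 18 h against sham, 12 h against 6 h and 18 h against 12 h, and Irf7 at 18 h was added to the calls (adjusted p = 0.0493). Deviations of arrays with the same number correlated by 0.0065 to 0.556, so the numbers were not taken as pairs. The block of array sets left 1 of the 8 genes called at 12 h against 6 h.

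Leaving out 1 array at a time gave 7 to 48 probe sets at 6 h, 626 to 1079 at 12 h and 879 to 1371 at 18 h against sham, 245 to 608 at 12 h against 6 h and 0 to 53 at 18 h against 12 h. The lowest 3 counts against sham all came without sham replicate 4, and the lowest at 12 h against 6 h without 6 h replicate 3. Of the 8 genes, 0 to 3 were then called at 12 h against 6 h, 2 to 4 at 12 h and 4 to 5 at 18 h. Differences that changed sign ranged from -0.33 to 0.04 for Irf7, -0.26 to 0.5 for Isg15 and -0.32 to 0.41 for Mx1 at 6 h, from -0.13 to 0.22 for Usp18 at 12 h, and from -0.05 to 0.76 for Isg15 and -0.04 to 0.4 for Irf7 at 18 h against 12 h. Irf1 and Gbp2 at 12 h and 18 h, and Isg15 and Ifit2 at 18 h, kept their calls in all 8 such fits. Signal near background limits Ifit3, Oas1a, Mx1 and the sham side of Isg15, Ifit2 and Mx2.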
